A study of Xenopus laevis with 6 samples.

Results

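Axon guidance genes of the ephrin, semaphorin, slit and netrin families were followed along the hind limb bud of Xenopus laevis, the African clawed frog. The genes described here are 81 gene copies of 51 genes, picked by symbol (Eph receptors, ephrins, semaphorins, plexins, plexin domain proteins, neuropilins, slits, robos, netrins, unc5 receptors, dcc, neogenin, rgma and slitrk proteins) from the 6943 gene IDs that carry a name in the authors' deposited table, out of 51061 gene IDs counted. Through an ancient genome doubling most X. laevis genes exist as a pair of related copies on separate chromosomes, named L and S (homeologs). For 30 of the 51 genes both copies were named, for 15 the L copy alone and for 6 the S copy alone. That table holds a gene only where the authors called it between at least one pair of segments in these same libraries. All members had therefore been selected for a difference, 16 of them in 1 comparison, 48 in 2 and 17 in 3, and how many were called again in the present fit supports nothing by itself. Guidance genes outside that table are not analysed here.

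These families were first known for steering growing axons, and most of them also act between non-neuronal cells. Ephrins are membrane-bound ligands of the Eph receptor tyrosine kinases, and contact between ligand and receptor signals into both cells, often with repulsion or sorting of cell populations. Semaphorins signal through plexins, and most secreted semaphorins need a neuropilin as co-receptor. Slits signal through robo receptors, and netrins through dcc, neogenin and unc5 receptors, with attraction or repulsion depending on the receptor. In limb buds of mouse and chick, members of these families act on ingrowing motor and sensory axons, on blood vessels and on the sorting of mesenchymal cells before cartilage forms.

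Wild type tadpoles at stage 51 (strain given as wildtype, no treatment) supplied hind limbs that were divided into a proximal, a medial and a distal segment, running from body wall to limb tip. Each segment was represented by 2 biological replicate pools, each of 30 hind limbs, labelled Black (pool 1) and Red (pool 2), and 1 ug of total RNA went into each of the 6 libraries. A limb segment can hold mesenchyme, epidermis, vessels, blood and nerve together. In such bulk samples, fewer cells of one type and less RNA per cell cannot be told apart.

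Proximal pool 1 had the fewest fragments assigned to genes (10815041) and proximal pool 2 the most (35479915). The guidance genes took 0.322% to 0.369% of them. Levels are given as CPM, counts per 1000000 assigned fragments after TMM scaling, and 3 counts correspond to 0.283 CPM in the shallowest library and 0.0840 CPM in the deepest. Floors and intervals cover counting error only and leave out the spread between pools. Nor can copies made by amplification be told from separate molecules. Across the 27007 genes tested, log2 CPM correlated at 0.987 to 0.989 between pools of one segment and at 0.914 to 0.973 between segments, and no library stood apart from its partner. The limb mesenchyme gene prrx1.L was at 273 and 261 CPM in the proximal pools, 343 and 374 CPM in the medial pools and 172 and 169.9 CPM in the distal pools. Its presence in every library bears on the tissue label only, not on the segments. Its peak in medial was not shared by the summed limb mesenchyme markers (8006 and 8930 CPM in proximal, 6840 and 5877 CPM in medial). Exons of 6 copies (nrp1.L, ntn1.S, plxna1.L, sema6b.S, slitrk2.L and slitrk2.S) overlap another annotated gene. Counting did not use strand and left out fragments shared by genes, so that fragments shared in these overlaps were counted for neither gene. Positions come from the deposited counts, and their genome build is not given in the sources used here.

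The guidance genes were lower at the limb tip more often than higher. Between distal and proximal, 50 of 81 copies were lower and 23 higher in distal (edgeR quasi-likelihood test, Benjamini-Hochberg adjusted p under 0.05), and 8 were not called. Of all 27007 genes tested, 29.5% were called in this comparison, 13.6% higher and 15.9% lower. Because members had to be named, the closer background is the 6912 named genes past the filter on low counts, all of them picked by the authors in the same way. Of these, 88.3% were called, 39.3% higher and 49.0% lower, against 90.1%, 28.4% and 61.7% of the guidance genes. The median log2 fold change was −0.64 over the members, −0.36 over the named genes and −0.003 over all genes tested. Changes of 2-fold or more were called for 30 copies that fell (37.0%) and 7 that rose (8.64%). Among all genes tested 9.11% fell and 4.55% rose by as much, and among the named genes 30.0% fell and 14.8% rose.

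**Figure D1:**
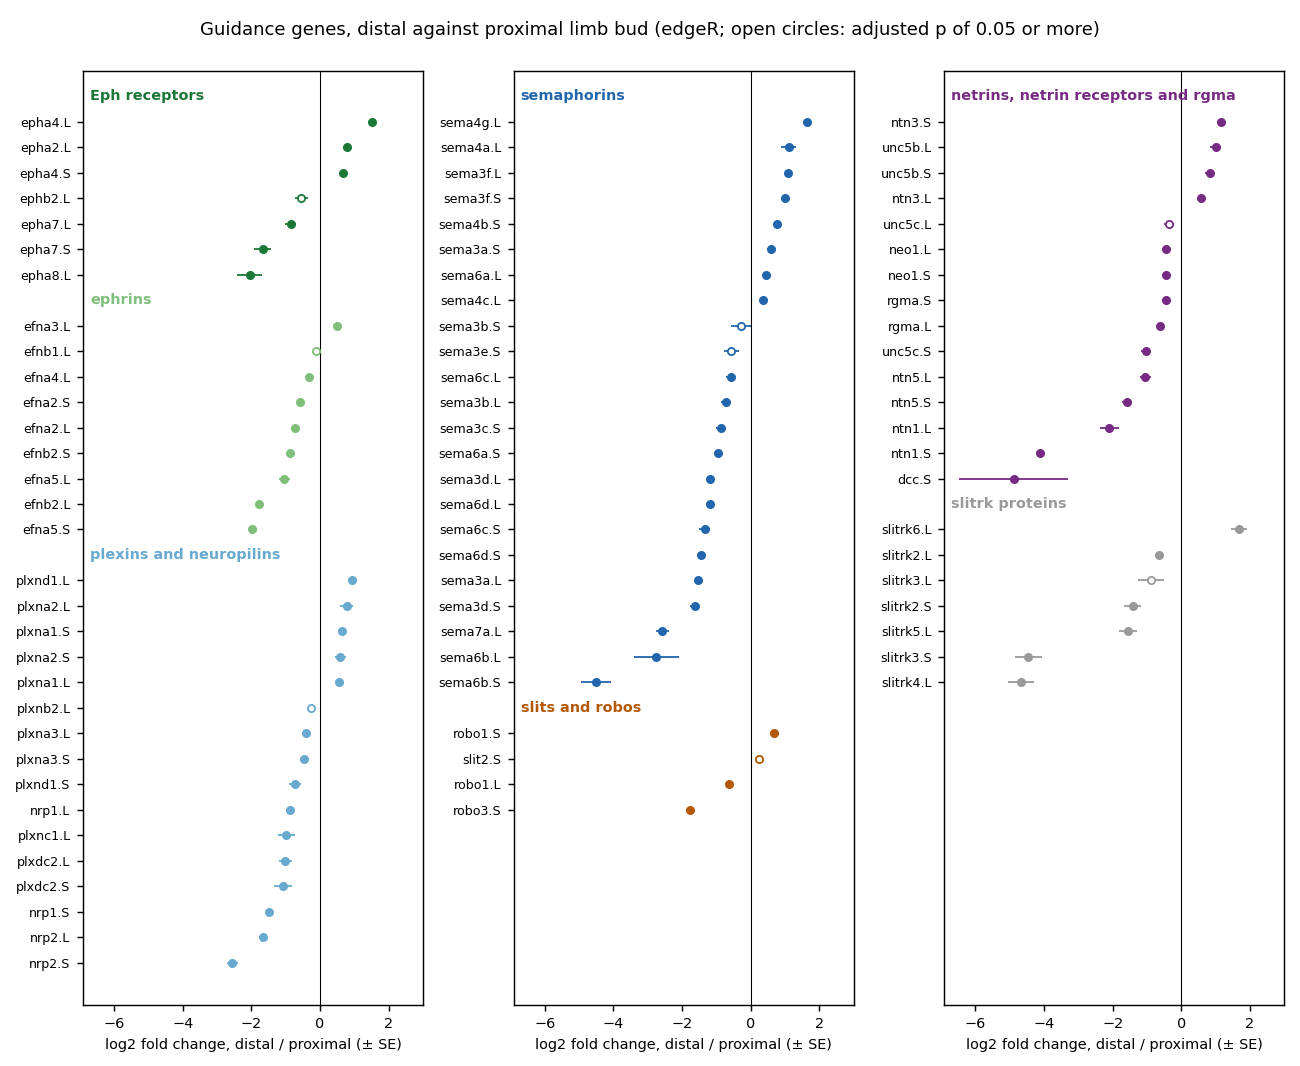
Log2 fold change from proximal to distal (x axis, bars are standard errors of the edgeR fit) of the 81 guidance gene copies, grouped by role and sorted within each role. Open circles are the 8 copies with an adjusted p of 0.05 or more, and apart from dcc.S, which had no count in distal, the values run from −4.67 for slitrk4.L to 1.68 for slitrk6.L.

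Calls were more frequent at the outer boundary, that of distal with medial, than at the inner one, that of medial with proximal, among the guidance genes and among all and named genes. At the outer boundary 46 copies were lower and 19 higher in distal. Calls there covered 25.0% of all genes (12.1% higher, 12.9% lower) and 76.8% of the named genes (35.6% higher, 41.1% lower). At the inner boundary 21 copies were lower and 14 higher in medial. Calls there covered 7.6% of all genes (2.73% higher, 4.88% lower) and 26.6% of the named genes (9.82% higher, 16.7% lower). The 35 calls at the inner boundary fell to 19 without proximal pool 2, the deepest library. A joint test over all segments called 79 of 81 copies, 30.3% of all genes and 95.4% of the named genes. The segment with the lowest mean level was distal for 52 copies, proximal for 15 and medial for 14. Among all genes called for any difference, the distal segment was lowest for 49.2%, proximal for 30.5% and medial for 20.2%. The highest mean was in proximal for 35 copies, in medial for 25 and in distal for 21. Among all genes called for any difference those shares were 35.8%, 21.9% and 42.3%.

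**Figure D2:**
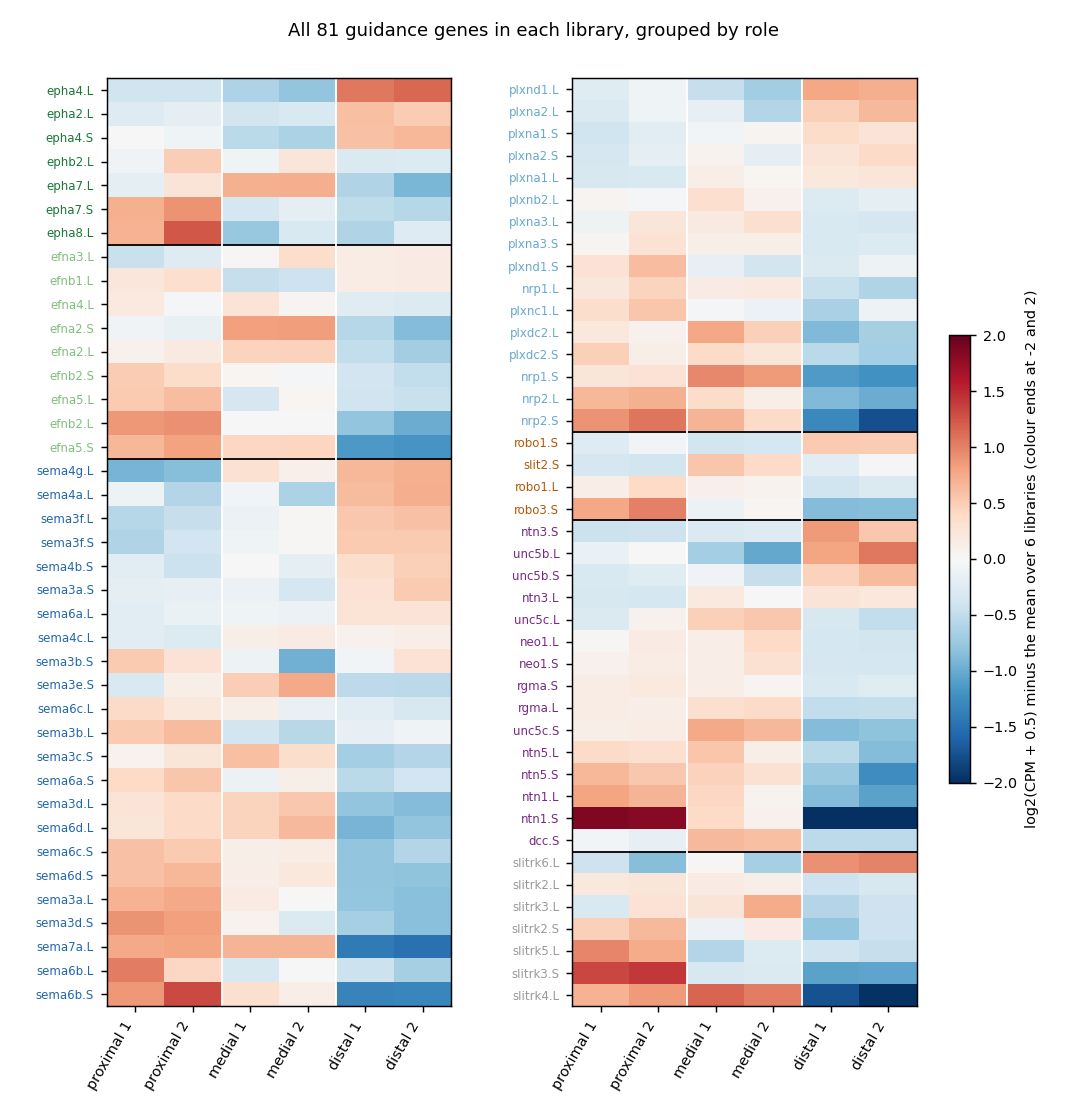
Level of each of the 81 copies in each of the 6 libraries, as log2(CPM + 0.5) minus the gene's mean over the libraries, with colour ending at −2 and 2. Black lines separate the roles, and label colours mark Eph receptors (dark green), ephrins (light green), semaphorins (dark blue), plexins and neuropilins (light blue), slits and robos (brown), netrins with their receptors and rgma (purple) and slitrk proteins (grey). Blue cells prevail in the distal columns, where 52 copies had their lowest mean.

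The Eph receptors went in both directions, led by a rise of epha4 at the limb tip. Of 7 copies, 3 were higher in distal than in proximal (epha4.L, epha4.S and epha2.L), 3 were lower (epha7.L, epha7.S and epha8.L) and ephb2.L was not called. Among the named genes 39.3% were higher and 49.0% lower in this comparison. A further 6 Eph receptors have names outside the symbol rule, of which 5 were lower and 1 higher in distal (see other observations). epha4 encodes a receptor that binds ephrins of both the A and the B type and that, in chick and mouse limbs, is known for its part in the choice of path by motor axons. epha4.L (gene18257, chromosome 5L, 122739427 to 122785530) was at 186 and 185 CPM in the proximal pools, 160.5 and 141 CPM in the medial pools and 511 and 543 CPM in the distal pools. Both distal pools lay far above the 4 other libraries, and epha4.L had the highest level per length of all Eph receptors, 54.9 CPM per kb over all libraries against 22.9 for epha4.S and 11.9 for epha2.L. It rose from proximal to distal (log2 fold change 1.50, SE 0.10, adjusted p = 9.84e-07) and from medial to distal (log2 fold change 1.81, SE 0.10, adjusted p = 4.71e-07). epha4.S was at 108 and 101 CPM in the proximal pools, 74.1 and 69.3 CPM in the medial pools and 161 and 170.5 CPM in the distal pools, so that the medial pools were lowest and the distal pools highest without overlap. Its rise from proximal to distal was smaller (log2 fold change 0.67, SE 0.09, adjusted p = 0.000191), and it fell from proximal to medial (log2 fold change −0.54, SE 0.09, adjusted p = 0.00338). epha2.L, a receptor of A-type ephrins common in epithelia, was at 44.4 and 46.1 CPM in the proximal pools, 41.05 and 42.9 CPM in the medial pools and 81.02 and 75.6 CPM in the distal pools (log2 fold change 0.79, SE 0.09, adjusted p = 5.42e-05).

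The epha7 and epha8 copies were lower in distal than in proximal. epha7, which in mouse limbs is known as a target of the distal Hox proteins, was at 16.2 and 22.1 (proximal), 30.6 and 30.7 (medial) and 11.9 and 9.52 CPM (distal) for the L copy. The medial pools were thus the highest, and epha7.L fell from medial to distal (log2 fold change −1.50, SE 0.15, adjusted p = 4.74e-05) and from proximal to distal (log2 fold change −0.86, SE 0.16, adjusted p = 0.00207). Its rise from proximal to medial (adjusted p = 0.0208) was lost without proximal pool 1 (adjusted p = 0.0915). epha7.S was at 3.68 and 4.26 (proximal), 1.50 and 1.74 (medial) and 1.29 and 1.22 CPM (distal), highest in the proximal pools (log2 fold change −1.67, SE 0.25, adjusted p = 0.000365). Its step from proximal to medial (−1.31, adjusted p = 0.0037) was lost without proximal pool 2 (adjusted p = 0.0971). epha8.L, a receptor known mainly from the nervous system, was at 2.17 and 3.39 (proximal), 0.477 and 0.835 (medial) and 0.584 and 0.878 CPM (distal), close to the level at which few fragments are counted. Its fall from proximal to distal (log2 fold change −2.05, SE 0.37, adjusted p = 0.00151) was lost without proximal pool 2 (adjusted p = 0.0566), and that from proximal to medial (log2 fold change −2.15, SE 0.35, adjusted p = 0.00258) without proximal pool 2 (adjusted p = 0.113). ephb2.L, a receptor of B-type ephrins, was at 31.8 and 47.4 (proximal), 31.5 and 39.8 (medial) and 27.3 and 27.7 CPM (distal), and its proximal pools differed from each other by more than the proximal and distal means did. Its lower level in distal than in proximal (log2 fold change −0.55, SE 0.19, adjusted p = 0.0658) was called without proximal pool 1, medial pool 1 or medial pool 2 (adjusted p = 0.00243, 0.0303 and 0.0302, in that order), with no filter on low counts (adjusted p = 0.00527), with DESeq2 (adjusted p = 0.0224), with limma-voom (adjusted p = 0.04) and in the fit of only the 4 libraries compared (adjusted p = 0.0268). Summed over the 7 copies, the receptor level was 77.9 and 81.5 CPM per kb in the proximal pools, 67.7 and 65.3 in the medial pools and 156 and 162 in the distal pools. The epha4 copies alone gave 57.2 and 55.5, 45.5 and 40.8 and 129.9 and 138 CPM per kb in the same order. The other 5 copies summed to 20.7 and 25.9, 22.2 and 24.5 and 25.9 and 24.4 CPM per kb.

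The ephrins, the ligands of these receptors, were mostly lower in distal. Of 9 copies, 7 were lower in distal than in proximal, against 49.0% of the named genes, efna3.L was higher and efnb1.L was not called. Summed over the 9 copies, the ligand level was 163 and 164 CPM per kb in the proximal pools, 155 and 154 in the medial pools and 114 and 108 in the distal pools. The sum of the A-type ephrins was lowest in distal (82.00 and 81.2 CPM per kb in proximal, 104 and 103 in medial and 59.2 and 54.3 in distal). The sum of the B-type member copies was lowest in medial (80.8 and 83.04, 50.6 and 50.4 and 54.99 and 54.1 CPM per kb in the same order). That sum leaves out LOC108703540, provisionally efnb3, whose name lies outside the symbol rule. Its mean level was 20.8 CPM per kb in proximal, 17.6 in medial and 13.0 in distal, so the medial minimum holds for the member copies only. efna5, a lipid-anchored ephrin, had the largest fall. efna5.S (gene44524, chromosome 1S, 146827437 to 147114778) was at 27.3 and 29.9 CPM in the proximal pools, 22.9 and 23.1 CPM in the medial pools and 7.38 and 7.23 CPM in the distal pools. The proximal and medial pools lay well above the distal ones (log2 fold change −1.98, SE 0.11, adjusted p = 2.53e-07 against proximal, and log2 fold change −1.65, SE 0.11, adjusted p = 1.47e-06 against medial). efna5.L was lower in the medial and distal pools, at 12.8 and 13.8 (proximal), 6.86 and 9.07 (medial) and 6.59 and 6.35 CPM (distal). It fell from proximal to distal (log2 fold change −1.05, SE 0.16, adjusted p = 0.000526), and its step from proximal to medial (adjusted p = 0.0111) was lost without proximal pool 2 (adjusted p = 0.141). The other A-type ephrin with both copies named, efna2, peaked in medial. efna2.S was at 34.2 and 32.5 CPM in the proximal pools, 64.4 and 64.7 CPM in the medial pools and 24.2 and 19.7 CPM in the distal pools. It rose from proximal to medial (log2 fold change 0.96, SE 0.11, adjusted p = 0.00017) and fell from there to distal (log2 fold change −1.55, SE 0.11, adjusted p = 1.8e-06). efna2.L had its highest level in the same segment, at 88.98 and 95.5 (proximal), 115 and 116 (medial) and 59.9 and 51.9 CPM (distal). It fell from medial to distal (log2 fold change −1.05, SE 0.10, adjusted p = 1.67e-05), but its step from proximal to medial missed the threshold (log2 fold change 0.32, SE 0.10, adjusted p = 0.0707), which it passed with no filter on low counts (adjusted p = 0.0263).

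Among B-type ephrins, which span the membrane, efnb2 fell at each boundary. efnb2.L (gene4314, chromosome 2L, 117408972 to 117443477) was at 101 and 105 CPM in the proximal pools, 56.1 and 55.2 CPM in the medial pools and 31.96 and 27.7 CPM in the distal pools. The 3 segments did not overlap, and the log2 fold changes were −0.89 from proximal to medial and −0.89 from medial to distal (SE 0.09 and 0.10, adjusted p = 0.00013 and 5.31e-05). efnb2.S followed the same order more weakly, at 89.9 and 82.05 (proximal), 64.8 and 61.5 (medial) and 48.1 and 44.98 CPM (distal) (log2 fold change −0.88, SE 0.09, adjusted p = 3.29e-05). Its inner step (adjusted p = 0.0119) was lost without proximal pool 1 (adjusted p = 0.0746) and its outer step (adjusted p = 0.00551) without distal pool 2 (adjusted p = 0.0772). efnb2 is known as a marker of arterial endothelium in mouse. efnb1.L, mutated in a human craniofacial syndrome, had the highest level per length among ephrins (34.95 CPM per kb) and was at 144 and 155 CPM in the proximal pools, 88.7 and 91.4 CPM in the medial pools and 136 and 138 CPM in the distal pools. Its dip in medial was called on both sides (log2 fold change −0.73, SE 0.09, adjusted p = 0.000335 towards medial and log2 fold change 0.60, SE 0.09, adjusted p = 0.000471 towards distal), while distal and proximal were not called apart (log2 fold change −0.13, SE 0.09, adjusted p = 0.307). efna3.L, the only ephrin copy called higher in distal than in proximal, was at 12.2 and 13.9 (proximal), 17.02 and 21.6 (medial) and 18.6 and 18.8 CPM (distal). That call (log2 fold change 0.50, SE 0.14, adjusted p = 0.0165) was lost without proximal pool 1, distal pool 1 or distal pool 2 (adjusted p = 0.0707, 0.0893 and 0.0792, in that order). efna4.L changed least among the 8 called ephrin copies (−0.34, adjusted p = 0.0396), and that call was lost without proximal pool 1, distal pool 1 or distal pool 2 (adjusted p = 0.187, 0.173 and 0.182, in that order), with DESeq2 (adjusted p = 0.084) and with limma-voom (adjusted p = 0.0532).

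**Figure D3:**
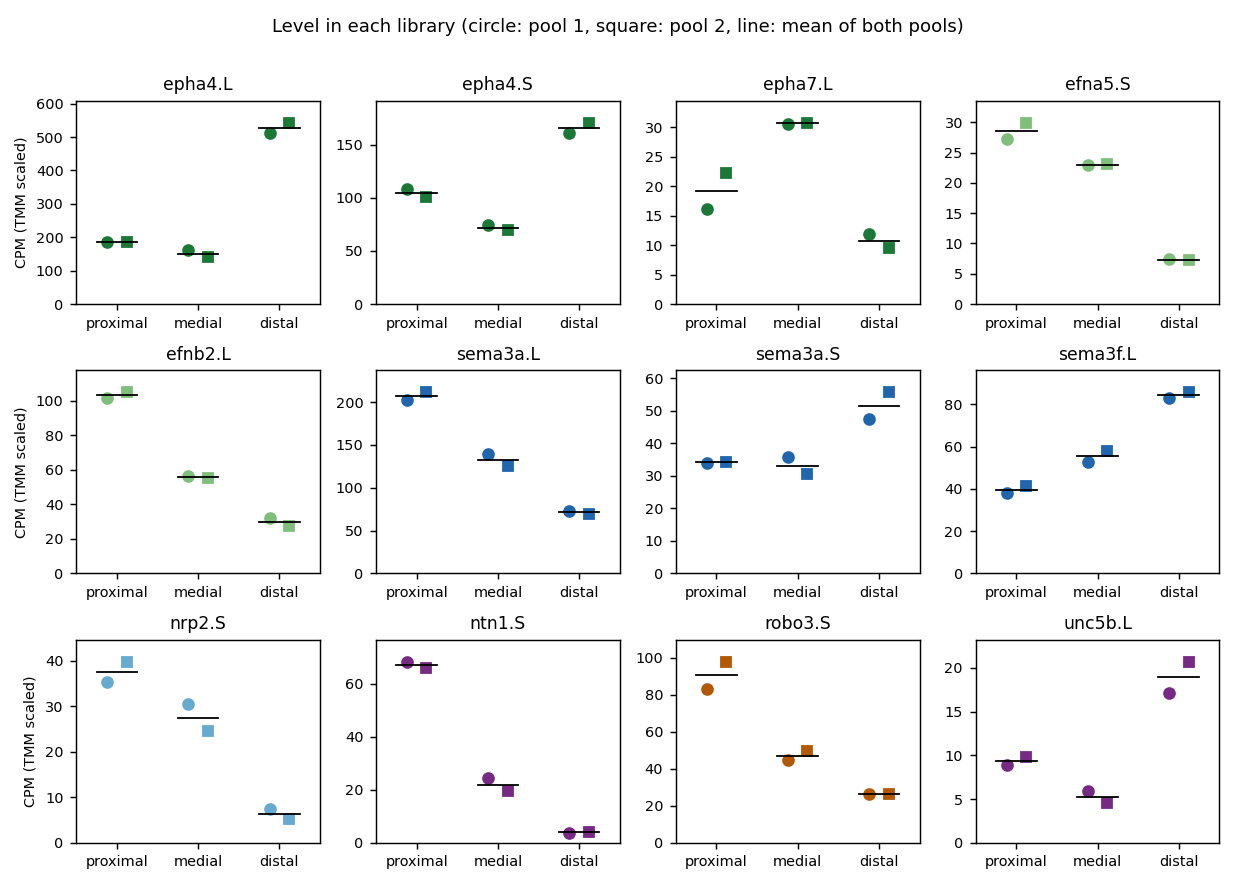
Level in CPM (y axis, from 0) of 12 guidance gene copies in the 6 libraries, by segment, with circles for pool 1, squares for pool 2 and lines for the mean of both. epha4.L, epha4.S, sema3a.S, sema3f.L and unc5b.L were highest in both distal pools, whereas efna5.S, efnb2.L, sema3a.L, nrp2.S, ntn1.S and robo3.S were highest in the proximal pools and epha7.L in the medial pools.

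Among the 23 semaphorin copies, classes 4 and 6 went mostly opposite ways and class 3 went both ways. Between distal and proximal, 13 copies were lower in distal, 8 were higher and 2 (sema3b.S and sema3e.S) were not called. The sema3e.S value (log2 fold change −0.57, SE 0.22, adjusted p = 0.0695) was called without proximal pool 1, medial pool 1 or medial pool 2 (adjusted p = 0.0405, 0.0381 and 0.0412, in that order), with no filter on low counts (adjusted p = 0.0454) and in the fit of only the 4 libraries compared (adjusted p = 0.044). All 4 copies of class 4, transmembrane proteins, were higher, and 7 of 8 copies of class 6, also transmembrane, were lower. Of the named genes, 39.3% were higher and 49.0% lower in this comparison. The 10 copies of class 3, the secreted semaphorins, gave 3 higher and 5 lower. Median log2 fold changes were 0.93 for class 4, −1.27 for class 6 and −0.65 for class 3.

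In class 3, sema3a was the most abundant per length and its copies ran in opposite directions. sema3a encodes a repellent of sensory and motor axons that acts through neuropilin 1 and class A plexins, and in mouse and chick it is known for restraining axon growth into the limb. sema3a.L (gene38817, chromosome 3L, 70770992 to 70908480) was at 203 and 212 CPM in the proximal pools, 139.8 and 126 CPM in the medial pools and 73.1 and 69.7 CPM in the distal pools. It fell in steps, with log2 fold changes of −0.64 (SE 0.09, adjusted p = 0.00116) across the inner boundary and −0.89 (SE 0.09, adjusted p = 3.98e-05) across the outer one. sema3a.S was at 33.9 and 34.4 CPM in the proximal pools, 35.8 and 30.6 CPM in the medial pools and 47.6 and 55.8 CPM in the distal pools, so that the distal pools were the highest (log2 fold change 0.59, SE 0.11, adjusted p = 0.00197). sema3f, which acts through neuropilin 2, rose from base to tip in both copies. sema3f.L was at 38.1 and 41.2 CPM in the proximal pools, 52.7 and 58.1 CPM in the medial pools and 83.2 and 85.8 CPM in the distal pools (log2 fold change 1.09, SE 0.10, adjusted p = 6.98e-06). sema3f.S had a similar course, at 37.1 and 43.5 CPM in the proximal pools, 53.4 and 57.4 CPM in the medial pools and 81.7 and 81.5 CPM in the distal pools (log2 fold change 1.01, SE 0.10, adjusted p = 2.01e-05). The inner step of sema3f.L (adjusted p = 0.00896) was lost without proximal pool 1 (adjusted p = 0.0567). That of sema3f.S (adjusted p = 0.0178) was lost without proximal pool 1 or medial pool 2 (adjusted p = 0.11 and 0.0522, in that order) and in the fit of only the 4 libraries compared (adjusted p = 0.0529). sema3d fell in both copies, from 36.9 ± 2.19 CPM to 16.3 ± 0.732 CPM for L and from 46.7 ± 1.77 CPM to 14.98 ± 1.23 CPM for S (SD, n = 2), while the medial level was the highest for L (41.5 ± 2.01 CPM) and in between for S (23.8 ± 4.15 CPM). sema3c.S fell to 7.20 ± 0.327 CPM from 12.8 ± 1.18 CPM (log2 fold change −0.86, SE 0.15, adjusted p = 0.000984). sema3b.S was not called at either boundary (inner log2 fold change −0.92, SE 0.28, adjusted p = 0.113, and outer 0.63, SE 0.29, adjusted p = 0.158). Both steps were called without medial pool 1 (−1.45 and 1.17) and with no filter on low counts (adjusted p = 0.00031 and 0.0129). The inner step was also called with DESeq2 (adjusted p = 0.0347) and with limma-voom (adjusted p = 0.0489). sema3b.L had its lowest mean in medial, but distal and medial were not called apart (log2 fold change 0.36, adjusted p = 0.0617) except without medial pool 1 (0.46). It fell from proximal to medial (log2 fold change −1.09, adjusted p = 0.000212) and from proximal to distal (log2 fold change −0.73, adjusted p = 0.000998).

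The 4 class 4 copies, each the only named copy of its gene, were all higher in distal than in proximal. Of these, 3 were also higher in distal than in medial. The exception was sema4c.L, with similar levels in medial and distal (log2 fold change −0.04, adjusted p = 0.796). sema4g.L was at 5.29 and 5.57 CPM in the proximal pools, 13.02 and 11.4 CPM in the medial pools and 16.98 and 17.4 CPM in the distal pools, and the proximal pools lay below all others (log2 fold change 1.65, SE 0.14, adjusted p = 4.58e-06). Its step from proximal to medial was 1.15 (adjusted p = 0.000291), and the smaller outer step (0.50, adjusted p = 0.0126) was lost without medial pool 2, distal pool 1 or distal pool 2 (adjusted p = 0.0667, 0.0874 and 0.0943, in that order) and with DESeq2 (adjusted p = 0.0674). sema4a.L, a ligand known also from immune cells, was at 8.97 and 6.27 (proximal), 9.21 and 6.02 (medial) and 15.2 and 16.3 CPM (distal), with both distal pools above the others (log2 fold change 1.11, SE 0.22, adjusted p = 0.00427). That call was lost without proximal pool 2 (adjusted p = 0.0656), and the step from medial was 1.05 (adjusted p = 0.00583). sema4b.S rose by 0.76 and sema4c.L by 0.36 on the log2 scale (adjusted p = 0.00036 and 0.00975). The sema4c.L call was lost without proximal pool 2, distal pool 1 or distal pool 2 (adjusted p = 0.0657, 0.0618 and 0.0932, in that order).

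Class 6 and class 7 held the steepest falls among semaphorins. sema6b.S was at 2.36 and 3.42 CPM in the proximal pools, 1.47 and 1.23 CPM in the medial pools and 0.125 and 0.135 CPM in the distal pools, which in the distal libraries is 3 and 2 counts. From summed counts its proximal level was 24.6-fold (95% exact interval 10.3 to 76.96) the distal one (adjusted p = 1.53e-05), and its medial level 10.5-fold (95% exact interval 4.29 to 33.2) the distal one (adjusted p = 0.000422). The inner step (log2 fold change −1.16, SE 0.27, adjusted p = 0.0217) was lost without proximal pool 2 or medial pool 2 (adjusted p = 0.377 and 0.0573, in that order) and with DESeq2 (adjusted p = 0.253). sema6b.L was scarcer still, at 1.32 and 0.7 (proximal), 0.22 and 0.399 (medial) and 0.167 and 0.0675 CPM (distal), where the distal libraries held 4 and 1 counts. Its proximal level was 6.53-fold (95% exact interval 2.57 to 21.2) the distal one, and this call (adjusted p = 0.00772) was lost without distal pool 2 (adjusted p = 0.057). sema7a.L, a lipid-anchored semaphorin that binds plexin C1 and integrins, was at 8.31 and 8.51 CPM in the proximal pools, 7.81 and 7.84 CPM in the medial pools and 1.46 and 1.35 CPM in the distal pools. It was not called across the inner boundary (−0.11, adjusted p = 0.816) and fell across the outer one (log2 fold change −2.46, SE 0.18, adjusted p = 3.13e-06). sema6d fell in both copies (log2 fold change −1.19, SE 0.11, adjusted p = 8.88e-06 for L, and log2 fold change −1.44, SE 0.09, adjusted p = 6.2e-07 for S). sema6a, a ligand of class A plexins, split: sema6a.L rose from 142 ± 5.86 CPM to 194 ± 0.321 CPM (log2 fold change 0.45, SE 0.09, adjusted p = 0.00247) and sema6a.S fell from 83.3 ± 6.58 CPM to 43.2 ± 3.25 CPM (log2 fold change −0.95, SE 0.11, adjusted p = 6.19e-05). sema6c.S fell by 1.35 (adjusted p = 6.95e-05) and sema6c.L by 0.58 on the log2 scale (adjusted p = 0.00764). The latter call was lost without distal pool 2 (adjusted p = 0.0651).

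Neuropilins are the co-receptors of secreted semaphorins and of vascular endothelial growth factors. All 4 copies were lower in distal than in proximal, against 49.0% of the named genes. All were also lower in distal than in medial, against 41.1% of the named genes. nrp2.S was at 35.2 and 39.8 CPM in the proximal pools, 30.4 and 24.5 CPM in the medial pools and 7.38 and 5.20 CPM in the distal pools (log2 fold change −2.55, SE 0.17, adjusted p = 1.75e-06). nrp2.L was at 57.8 and 59.8 CPM in the proximal pools, 46.8 and 39.8 CPM in the medial pools and 19.3 and 17.9 CPM in the distal pools (log2 fold change −1.66, SE 0.11, adjusted p = 6.91e-07). In both copies most of the fall lay across the outer boundary (−2.09 for S and −1.21 for L), and the inner step of nrp2.S (−0.46, adjusted p = 0.0966) was called without medial pool 1 (adjusted p = 0.0125) and with no filter on low counts (adjusted p = 0.00152). The inner step of nrp2.L (−0.44, adjusted p = 0.0196) was lost without any single library but medial pool 1 (adjusted p = 0.0512 to 0.139) and in the fit of only the 4 libraries compared (adjusted p = 0.0525). nrp1.S peaked in medial, at 21.3 and 22.01 CPM in the proximal pools, 35.1 and 32.5 CPM in the medial pools and 7.84 and 7.43 CPM in the distal pools, with a rise across the inner boundary (log2 fold change 0.64, SE 0.10, adjusted p = 0.00192) and a fall across the outer one (log2 fold change −2.14, SE 0.11, adjusted p = 2.07e-07). nrp1.L was at 41.7 and 48.7 (proximal), 39.98 and 40.8 (medial) and 25.95 and 23.4 CPM (distal), with both distal pools lowest (log2 fold change −0.88, SE 0.11, adjusted p = 8.16e-05). It was not called across the inner boundary (−0.17, adjusted p = 0.453). Summed over both genes, neuropilins stood at 20.5 and 22.4 CPM per kb in the proximal pools and 8.03 and 7.18 in the distal pools.

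The plexins, the signalling receptors of semaphorins, went in both directions. Of 10 plexin copies, 5 were higher in distal than in proximal, 4 were lower and plxnb2.L was not called. Among the named genes 39.3% were higher and 49.0% lower in this comparison. plxnd1.L, the receptor of sema3e known from endothelium in mouse, was at 24.6 and 27.4 CPM in the proximal pools, 21.1 and 17.8 CPM in the medial pools and 50.1 and 48.8 CPM in the distal pools, with the distal pools above all others (log2 fold change 0.92, SE 0.11, adjusted p = 7.09e-05 against proximal, and log2 fold change 1.35, SE 0.11, adjusted p = 5.33e-06 against medial). Its dip in medial (adjusted p = 0.038) was lost without any single library but medial pool 1 (adjusted p = 0.051 to 0.3), with DESeq2 (adjusted p = 0.103) and in the fit of only the 4 libraries compared (adjusted p = 0.0926). plxnd1.S was at 9.35 and 11.8 (proximal), 6.68 and 5.73 (medial) and 6.09 and 7.02 CPM (distal) and fell (log2 fold change −0.73, SE 0.17, adjusted p = 0.0072), a call lost without proximal pool 2 or distal pool 1 (adjusted p = 0.133 and 0.102, in that order). Its inner step (−0.79, adjusted p = 0.0113) was lost without proximal pool 2 (adjusted p = 0.214). The ligand sema3e.S was at 3.68 and 5.07 (proximal), 6.79 and 8.27 (medial) and 3.09 and 3.04 CPM (distal), highest in medial (log2 fold change −1.29, SE 0.20, adjusted p = 0.000769 between distal and medial). Its inner step (adjusted p = 0.0423) was lost without any single library but medial pool 1 (adjusted p = 0.0648 to 0.202), with at least 10 counts in every library (adjusted p = 0.0522), with DESeq2 (adjusted p = 0.129) and in the fit of only the 4 libraries compared (adjusted p = 0.0766).

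Class A plexins, which pair with neuropilins, rose slightly from proximal to distal in 4 of the 6 member copies, against 39.3% of the named genes. Genes of this class whose names lie outside the symbol rule fell from proximal to distal. They were LOC108713037, provisionally plxna4 (log2 fold change −3.19, SE 0.25, adjusted p = 3.63e-06), and plxna4-like.1.L (log2 fold change −1.05, SE 0.22, adjusted p = 0.00651). plxna1.S was at 29.2 and 33.1 (proximal), 37.2 and 40.2 (medial) and 49.98 and 46.8 CPM (distal) (log2 fold change 0.63, SE 0.10, adjusted p = 0.000646). plxna1.L was at 54.8 and 55.6 (proximal), 75.8 and 70.9 (medial) and 79.6 and 81.05 CPM (distal) (log2 fold change 0.54, SE 0.09, adjusted p = 0.00074). The steps of plxna1.L across the inner boundary (adjusted p = 0.0136) and of plxna1.S across the outer one (adjusted p = 0.0321) were both lost in some alternatives. The first was lost without proximal pool 1 or proximal pool 2 (adjusted p = 0.0615 and 0.0686, in that order). The second was lost without medial pool 1, distal pool 1 or distal pool 2 (adjusted p = 0.114, 0.251 and 0.11, in that order) and with DESeq2 (adjusted p = 0.111). plxna2.L was at 5.38 and 6.24 (proximal), 5.91 and 4.32 (medial) and 9.51 and 10.8 CPM (distal) (log2 fold change 0.77, SE 0.18, adjusted p = 0.00802), a call lost without distal pool 2 (adjusted p = 0.0651). plxna2.S was at 7.27 and 8.12 (proximal), 9.79 and 8.06 (medial) and 11.3 and 12.3 CPM (distal) (log2 fold change 0.59, SE 0.15, adjusted p = 0.0122), a call lost without proximal pool 1 or distal pool 2 (adjusted p = 0.0512 and 0.0828, in that order). plxna3 fell in both copies, by 0.42 for L and 0.48 for S on the log2 scale. The plxna3.L call (adjusted p = 0.0225) was lost without proximal pool 2, distal pool 1 or distal pool 2 (adjusted p = 0.276, 0.128 and 0.14, in that order), and the plxna3.S call (adjusted p = 0.00416) without proximal pool 2 or distal pool 1 (adjusted p = 0.0556 and 0.0649, in that order). plxnb2.L, of class B, had the highest level per length of all plexins and neuropilins (10.1 CPM per kb) and was at 76.6 and 72.9 (proximal), 93.4 and 78.1 (medial) and 60.6 and 64.8 CPM (distal), with no call between distal and proximal (log2 fold change −0.25, SE 0.10, adjusted p = 0.0955) except without medial pool 1 or medial pool 2 (adjusted p = 0.0466 and 0.0465, in that order) and in the fit of only the 4 libraries compared (adjusted p = 0.0397). Its fall from medial to distal (−0.45, adjusted p = 0.00836) was lost without distal pool 1 (adjusted p = 0.118). plxnc1.L, the receptor of sema7a, was at 4.53 and 5.26 (proximal), 3.34 and 3.12 (medial) and 2.0 and 3.17 CPM (distal) (log2 fold change −0.99, SE 0.24, adjusted p = 0.00989), a call lost without proximal pool 2 or distal pool 1 (adjusted p = 0.117 and 0.16, in that order). plxdc2, a transmembrane protein with a plexin-like domain that is no plexin, fell across the outer boundary in both copies (log2 fold change −1.54, SE 0.18, adjusted p = 7.79e-05 for L, and log2 fold change −1.15, SE 0.26, adjusted p = 0.00728 for S), the S call being lost without distal pool 1 or distal pool 2 (adjusted p = 0.0617 and 0.0588, in that order).

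Slit and robo genes were represented by 4 copies, with slit2.S the only slit. Further slit and robo genes carry provisional names outside the symbol rule and are given under other observations. robo3.S, a robo family receptor known from the crossing of the midline by axons in mouse, was at 83.3 and 97.98 CPM in the proximal pools, 44.5 and 49.6 CPM in the medial pools and 26.4 and 26.5 CPM in the distal pools. It fell at each boundary, with log2 fold changes of −0.95 (SE 0.10, adjusted p = 0.000158) and −0.83 (SE 0.11, adjusted p = 0.000196), and its levels per length were 16.5, 8.56 and 4.81 CPM per kb in the proximal, medial and distal segments. robo1, a receptor of slits, split between its copies. robo1.L was at 57.8 and 69.7 CPM in the proximal pools, 56.7 and 55.3 CPM in the medial pools and 39.7 and 42.9 CPM in the distal pools (log2 fold change −0.64, SE 0.11, adjusted p = 0.000889). robo1.S was at 28.1 and 32.3 CPM in the proximal pools, 26.1 and 26.3 CPM in the medial pools and 48.8 and 47.95 CPM in the distal pools (log2 fold change 0.67, SE 0.10, adjusted p = 0.000335). The distal pools were thus the lowest for L and the highest for S. The outer step of robo1.L (−0.44, adjusted p = 0.0105) was lost without distal pool 1 (adjusted p = 0.139). slit2.S, a secreted ligand, was highest in the medial pools, at 11.9 and 11.5 CPM in the proximal pools, 22.5 and 19.7 CPM in the medial pools and 12.9 and 14.8 CPM in the distal pools (log2 fold change 0.85, SE 0.12, adjusted p = 0.00117 across the inner boundary). Its fall across the outer boundary (log2 fold change −0.61, SE 0.12, adjusted p = 0.00338) was lost without distal pool 1 (adjusted p = 0.0734).

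The steepest well-counted gradient of all 81 copies was that of ntn1.S. Netrin 1 is a secreted cue that attracts or repels axons according to the receptor they carry. ntn1.S (gene10795, chromosome 9_10S, 38233937 to 38305885) was at 68.3 and 66.03 CPM in the proximal pools, 24.4 and 19.5 CPM in the medial pools and 3.84 and 3.98 CPM in the distal pools. The segments were far apart, with log2 fold changes of −1.61 across the inner boundary (SE 0.11, adjusted p = 5.69e-06), −2.49 across the outer one (SE 0.14, adjusted p = 4.45e-07) and −4.10 in all (SE 0.14, adjusted p = 5.61e-09). Of its 15066 exonic bases, 797 overlap another annotated gene, and fragments there were not counted. ntn1.L had the same order at a lower level, 4.53 and 4.14 CPM in the proximal pools, 3.37 and 2.54 CPM in the medial pools and 1.08 and 0.878 CPM in the distal pools (log2 fold change −2.10, SE 0.27, adjusted p = 0.000127). ntn5 fell in both copies. ntn5.S was at 41.3 and 37.7 (proximal), 35.8 and 32.01 (medial) and 15.2 and 10.7 CPM (distal) (log2 fold change −1.58, SE 0.15, adjusted p = 2.33e-05). ntn5.L was at 45.2 and 43.6 (proximal), 51.2 and 37.7 (medial) and 23.7 and 18.7 CPM (distal) (log2 fold change −1.05, SE 0.16, adjusted p = 0.000995). ntn3 went the other way. ntn3.S was at 11.2 and 11.4 CPM in the proximal pools, 12.5 and 12.7 CPM in the medial pools and 28.04 and 22.5 CPM in the distal pools, so that both distal pools stood above the other 4 libraries (log2 fold change 1.17, SE 0.13, adjusted p = 4.33e-05). ntn3.L rose less, at 42.2 and 40.9 (proximal), 60.5 and 52.6 (medial) and 63.04 and 60.9 CPM (distal) (log2 fold change 0.58, SE 0.10, adjusted p = 0.000963), and its inner step (adjusted p = 0.0154) was lost without proximal pool 1, proximal pool 2 or medial pool 1 (adjusted p = 0.0507, 0.106 and 0.0611, in that order).

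Netrin receptors differed from one another. unc5b, which mediates repulsion and is known from endothelium in mouse, rose in distal in both copies. unc5b.L was at 8.88 and 9.80 CPM in the proximal pools, 5.94 and 4.54 CPM in the medial pools and 17.2 and 20.7 CPM in the distal pools, with the medial pools lowest and the distal pools highest (log2 fold change 1.00, SE 0.16, adjusted p = 0.0006 against proximal, and log2 fold change 1.85, SE 0.16, adjusted p = 9.86e-06 against medial). Its inner step (−0.85, adjusted p = 0.00899) was lost without proximal pool 2 (adjusted p = 0.133). unc5b.S was at 21.2 and 22.1 (proximal), 24.9 and 18.9 (medial) and 36.1 and 40.9 CPM (distal) (log2 fold change 0.82, SE 0.13, adjusted p = 0.000738). unc5c, a related repulsive receptor, was highest in medial. unc5c.S was at 10.3 and 10.6 CPM in the proximal pools, 16.4 and 15.4 CPM in the medial pools and 4.96 and 5.20 CPM in the distal pools, with a fall from medial to distal (log2 fold change −1.65, SE 0.13, adjusted p = 5.33e-06). The rise of unc5c.S from proximal to medial (0.60, adjusted p = 0.0104) was lost without proximal pool 2 (adjusted p = 0.0787). unc5c.L was at 10.01 and 13.2 (proximal), 17.4 and 18.3 (medial) and 9.85 and 8.65 CPM (distal), and its rise towards medial (adjusted p = 0.0275) was lost without proximal pool 1 or medial pool 2 (adjusted p = 0.134 and 0.0599, in that order), with DESeq2 (adjusted p = 0.0517) and in the fit of only the 4 libraries compared (adjusted p = 0.0511), whereas its fall towards distal was called (log2 fold change −0.94, SE 0.15, adjusted p = 0.000694).

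Neogenin, a receptor shared by netrins and repulsive guidance molecules, was the most abundant gene of the netrin group per length, and its changes were small. neo1.S (48.5 CPM per kb) was at 282 and 297 CPM in the proximal pools, 295 and 331 CPM in the medial pools and 213 and 209.9 CPM in the distal pools (log2 fold change −0.46, SE 0.10, adjusted p = 0.00466). neo1.L was at 227 and 252 CPM in the proximal pools, 245 and 294 CPM in the medial pools and 176 and 174 CPM in the distal pools (log2 fold change −0.45, SE 0.11, adjusted p = 0.00884). Both distal pools were the lowest for each copy. The distal to proximal call of neo1.S was lost without distal pool 1 or distal pool 2 (adjusted p = 0.0624 and 0.0676, in that order). That of neo1.L was lost without proximal pool 2, distal pool 1 or distal pool 2 (adjusted p = 0.0655, 0.0844 and 0.0885, in that order). rgma, a lipid-anchored ligand of neogenin, was likewise lowest in distal, with mean levels from 137 ± 4.71 CPM in medial to 75.9 ± 0.598 CPM in distal for rgma.L (log2 fold change −0.85, SE 0.09, adjusted p = 2.96e-05). rgma.S fell from proximal to distal by 0.46 on the log2 scale (adjusted p = 0.00326), a call lost without distal pool 1 (adjusted p = 0.0556). dcc.S, the attractive netrin receptor, was detected at the margin, with 2 and 5 counts in the proximal libraries, 17 and 16 in the medial ones and none in the distal ones. Against the floor of 3 counts per library, the medial level was at least 2.97-fold higher than the distal one (adjusted p = 0.00171). The call against proximal (adjusted p = 0.0415), for which the counts allow no fold, was lost without any single library (adjusted p = 0.0622 to 0.208) and with DESeq2 (adjusted p = 0.114).

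The slitrk proteins, leucine-rich membrane proteins known from neurite growth and synapses, were scarce apart from slitrk6.L and slitrk2.L. The means of these over all libraries were 16.3 and 8.82 CPM. Of 7 copies, 5 were lower in distal than in proximal, against 49.0% of the named genes, 1 was higher and slitrk3.L was not called. slitrk6.L was at 10.6 and 7.64 CPM in the proximal pools, 14.4 and 8.85 CPM in the medial pools and 27.2 and 28.9 CPM in the distal pools, with both distal pools highest (log2 fold change 1.68, SE 0.24, adjusted p = 0.00173 against proximal, and log2 fold change 1.27, SE 0.23, adjusted p = 0.00629 against medial). slitrk4.L was at 3.12 and 3.56 CPM in the proximal pools, 4.51 and 4.06 CPM in the medial pools and 0.167 and 0.0675 CPM in the distal pools, where the distal libraries held 4 and 1 counts. From summed counts its medial level was 33.2-fold (95% exact interval 14.05 to 103) the distal one (adjusted p = 2.91e-06). slitrk3.S was at 2.83 and 3.0 (proximal), 0.55 and 0.581 (medial) and 0.125 and 0.135 CPM (distal), with 3 and 2 counts in distal, and its proximal level was 22.9-fold (95% exact interval 9.60 to 71.8) the distal one (adjusted p = 9e-06). Its inner step was called too (log2 fold change −2.36, SE 0.28, adjusted p = 0.000328). slitrk3.L was at 1.13 and 1.96 (proximal), 1.91 and 2.87 (medial) and 0.834 and 1.01 CPM (distal), and its value against proximal (log2 fold change −0.89, SE 0.37, adjusted p = 0.0957) was called without medial pool 1 or medial pool 2 (adjusted p = 0.0447 and 0.0488, in that order). Its fall from medial to distal (adjusted p = 0.0129) was lost without medial pool 2, distal pool 1 or distal pool 2 (adjusted p = 0.0524, 0.147 and 0.0522, in that order). slitrk5.L was at 4.16 and 3.44 (proximal), 1.06 and 1.45 (medial) and 1.29 and 1.22 CPM (distal), so that its fall lay across the inner boundary (log2 fold change −1.56, SE 0.25, adjusted p = 0.00268). slitrk2 fell from proximal to distal in both copies (−0.64 for L and −1.42 for S, adjusted p = 0.00464 and 0.00127), the L call being lost without distal pool 1 (adjusted p = 0.0657). The slitrk2.S value is uncertain, since 479 of its 4589 exonic bases overlap another annotated gene.

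Read by boundary, the members took several patterns, each given here with its share of the 6912 named genes. A fall across the outer boundary with no call across the inner one was found for 28 copies (34.6%, against 29.8% of named genes), among them nrp2.S, efna5.S, sema7a.L and both copies of neo1, ntn5 and rgma. A rise across the outer boundary with no call across the inner one held 12 copies (14.8%, against 30.4%), including epha4.L, epha2.L, ntn3.S and slitrk6.L. Falls at both boundaries were called for 11 copies (13.6%, against 6.86%), namely efnb2.L, efnb2.S, nrp2.L, ntn1.S, robo3.S, sema3a.L, sema3d.S, sema6a.S, sema6b.S, sema6d.S and slitrk3.S. The outer step of slitrk3.S (log2 fold change −2.09) lost its call with DESeq2 (adjusted p = 0.0597) and without distal pool 1 (−2.02) or distal pool 2 (−2.14). The inner step of sema6a.S (−0.49) was lost without proximal pool 2 (−0.38) or medial pool 1 (−0.37), and its outer step (−0.47) without distal pool 1 (−0.39). That of sema6d.S across the inner boundary (−0.46) was lost without proximal pool 2 (−0.40). Rises at both boundaries were called for 3 copies (3.7%, against 2.78%), namely sema3f.L, sema3f.S and sema4g.L. Levels peaked in medial, with both steps called, for 7 copies (8.64%, against 4.47%), namely efna2.S, epha7.L, nrp1.S, sema3e.S, slit2.S, unc5c.L and unc5c.S. They dipped there for 4 (4.94%, against 2.5%), namely efnb1.L, epha4.S, plxnd1.L and unc5b.L. The inner boundary alone was called for 10 copies. Of these, 4 were higher in medial (4.94%, against 2.58%), among them efna3.L and plxna1.L, and 6 were lower (7.41%, against 7.38%), among them epha7.S and slitrk5.L. The efna3.L step (0.55, adjusted p = 0.0287) was lost with DESeq2 (adjusted p = 0.0518). It was also lost in the fit of only the 4 libraries compared (adjusted p = 0.0678). Without any single library but medial pool 1 it was lost as well (0.36 to 0.68). Neither boundary was called for 6 copies (7.41%, against 13.3%). On leaving out at least 1 library, 21 of the 35 inner calls and 18 of the 65 outer calls were lost.

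The L and S copies of one gene were compared directly, by testing their log2 ratio in each library for a difference between distal and proximal. Apart from the prior count, this ratio does not depend on the scaling of the library. Of 30 guidance genes with both copies named, 19 (63.3%) differed between copies at a limma adjusted p under 0.05, against 48.6% of all 1192 named pairs past the filter, and 14 to 18 did when 1 library was left out. In 27 pairs both copies were called between distal and proximal. Of these pairs 23 moved one way and 4 moved apart, where 9.04% of all named pairs with both copies called moved apart. Both shares rest on pairs of which the authors had called each copy somewhere.

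The 4 opposite pairs were sema3a, sema6a, robo1 and plxnd1. The difference of the L from the S log2 fold change was negative for sema3a (−2.13, SE 0.10, limma adjusted p = 1.24e-07) and robo1 (−1.30, SE 0.09, limma adjusted p = 1.64e-06). It was positive for sema6a (1.40, SE 0.10, limma adjusted p = 1.18e-06) and plxnd1 (1.60, SE 0.15, limma adjusted p = 1.08e-05). The more abundant copy per length was L in all 4, by 1.94-fold for sema3a, 1.57-fold for robo1, 2.19-fold for sema6a and 3.29-fold for plxnd1. Over all 30 guidance pairs it was L in 20. Levels per length depend on the annotated exon lengths, which can differ between copies (7324 bases for sema3a.L, 4115 for sema3a.S). In mean CPM without length scaling, L was also the higher copy in the 4 opposite pairs, as for sema3a (137 against 39.7 CPM). In pairs that moved the same way, the size could still differ, as for efnb2 (−0.91, SE 0.09, limma adjusted p = 1.86e-05), epha4 (0.83, SE 0.06, limma adjusted p = 2.47e-06) and nrp2 (0.92, SE 0.14, limma adjusted p = 0.000288). Among pairs with both copies called in one direction, ntn1 differed most (2.02, SE 0.21, limma adjusted p = 2.1e-05). The difference was larger still for slitrk3 (3.15, SE 0.43, limma adjusted p = 0.000158), of which slitrk3.L was not called between distal and proximal. slitrk3.S was near the floor in distal, where the prior count of 2 pulls log ratios towards 0. neo1 and sema3f gave no detectable difference (0.00, SE 0.06, limma adjusted p = 0.967, and 0.07, SE 0.08, limma adjusted p = 0.522). Multimapping fragments were left out by the counting tool, so near-identical stretches of L and S copies contribute to neither.

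**Figure D4:**
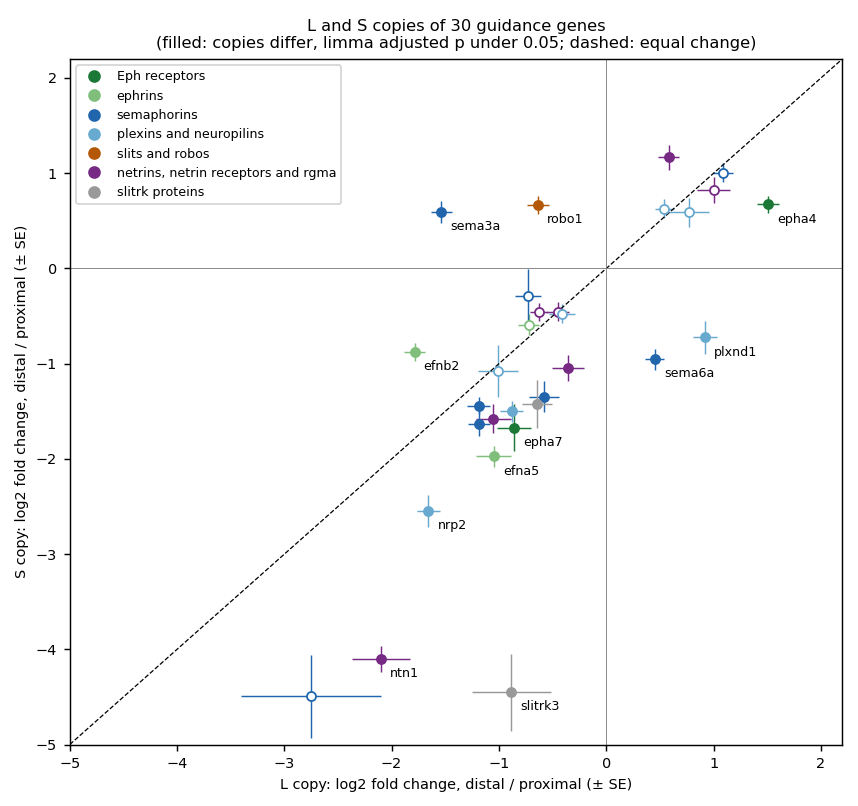
Log2 fold change from proximal to distal of the L copy (x axis) and the S copy (y axis) of 30 guidance genes, with standard errors as bars and colours for the role. Filled points are the 19 genes whose copies differed, the dashed line marks equal change, and sema3a, robo1, sema6a and plxnd1 lie in the quadrants of opposite direction.

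Partners and effectors of these pathways were read from a list of 59 genes, of which 25 were named, as 33 gene IDs. Between distal and proximal 21 of the 33 were lower in distal, 9 higher and 3 not called, with a median log2 fold change of −0.66. Of all named genes 49.0% were lower and 39.3% higher in this comparison, with a median of −0.36. The same counts held for the list between distal and medial, where 41.1% of the named genes were lower and 35.6% higher. By size of change, flrt1.L, hgf.L and cntn1.L led the list. flrt1.L, of a family of membrane proteins that bind unc5 receptors, was scarce, at 0.567 and 1.01 (proximal), 0.587 and 0.69 (medial) and 0.0834 and 0 CPM (distal) with 2 counts in all in distal (adjusted p = 0.00193). hgf.L, the ligand of the met receptor that in mouse draws muscle precursors into the limb, was at 12.3 and 10.7 (proximal), 2.68 and 2.43 (medial) and 1.0 and 0.608 CPM (distal) (log2 fold change −3.75, SE 0.24, adjusted p = 6.28e-07). cntn1.L, a contactin, an adhesion molecule of axons, was at 2.64 and 2.97 (proximal), 3.08 and 1.89 (medial) and 0.417 and 0.405 CPM (distal) (log2 fold change −2.77, SE 0.37, adjusted p = 0.00019). Both distal pools were the lowest for all 3. The largest rise was that of flrt3.S (log2 fold change 2.30, SE 0.12, adjusted p = 1.04e-07).

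Markers of cell types that carry guidance receptors also moved along the axis, and their part in the results above was not tested. Beside the marker counts given below, 49.0% of all named genes were lower and 39.3% higher in distal than in proximal. Of 11 endothelial markers 6 were named, as 10 gene IDs, and 9 of these were lower and 1 (egfl7.L) higher in distal than in proximal. Their summed level was 425 and 440.4 CPM in the proximal pools, 337 and 369 CPM in the medial pools and 279 and 249.9 CPM in the distal pools. Of 9 cartilage markers 8 were named, as 12 gene IDs, with 11 lower in distal and sums of 1322 and 1552, 1038 and 1283 and 613 and 608 CPM in the same order. Muscle markers (5 of 9 named, 9 gene IDs, 8 lower) summed to 47.3 and 48.1, 41.7 and 43.00 and 23.1 and 17.97 CPM, and myog.L, myog.S and pax7.L had no count in either distal library. Blood markers (6 of 9 named, 13 gene IDs, all lower) summed to 4311 and 6112, 8033 and 9815 and 401 and 197 CPM.

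For nerve the lists were thinner. Of 13 neuron markers 5 were named, as 8 gene IDs, with 6 lower, 1 higher and 1 not called, and their sums were 238 and 227 CPM in proximal, 241 and 211 in medial and 151 and 152 in distal. gap43.S, a protein of growing axons, made up only a small part of these sums. It was at 9.45 and 9.88 (proximal), 3.56 and 4.03 (medial) and 2.0 and 2.16 CPM (distal). Of 9 Schwann cell and neural crest markers 5 were named, as 9 gene IDs, 7 lower and 2 higher in distal, with sums of 66.6 and 66.2, 67.4 and 42.5 and 308 and 317 CPM. The distal sum was carried by tfap2b.L and tfap2b.S, while the defining glial gene sox10.S fell from 10.9 ± 0.0649 CPM to 0.52 ± 0.028 CPM and mpz.S had no count in distal. Epidermal markers (4 of 9 named, 8 gene IDs) gave 4 higher, 2 lower and 2 not called, and sums of 156 and 138, 156 and 94.1 and 201 and 206 CPM. Limb mesenchyme markers (8 of 9 named, 15 gene IDs) gave 2 higher, 10 lower and 3 not called. Their sums were 8006 and 8930.3 CPM in proximal, 6840.2 and 5877 in medial and 4787 and 4745 in distal.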

How the data were processed

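The authors counted fragments per gene with featureCounts 2.0.1 (paired-end, other settings default, hence without strand, multimapping fragments or fragments shared by genes), per the file headers. Trimmomatic 0.39, HISAT2 2.2.1, SAMtools 1.10 and DESeq2 1.30.1 are named in the submitters' processing notes. The genome build is not given in the sources used here. The deposited counts are raw, with other values (gene lengths in base pairs) beside them. The authors' deposited table holds log2 fold changes of genes whose adjusted p-value was under 0.05, and served here for names and selection. Of 81 members, 80 were found in a RefSeq gene table (Xenopus_laevis_v10.1), 72 with the same symbol. Among those with another symbol, ntn1.S, nrp1.S and plxna3.S carry the name of the L copy there. In the deposited counts each of these lies on an S chromosome, and the authors' copy names were kept.

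Counts of all 6 libraries were filtered (filterByExpr, minimum 10, total 15), scaled with TMM and tested with edgeR 4.0.16 in R 4.3.3 (quasi-likelihood, robust, segment as the only factor, 3 residual degrees of freedom), with Benjamini-Hochberg adjustment over 27007 genes and a threshold of 0.05. All 81 members passed the filter. Unless another test is named, adjusted p-values are from this fit. L and S copies were compared with limma 3.58.1 (trend, robust) on differences of log2 CPM (prior count 2), adjusted over 1192 pairs. Standard errors of edgeR are the absolute log2 fold change over the square root of F. Both procedures were tested on simulated data. Intervals of ratios are 95% exact binomial intervals on summed counts.

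Members, gene lists, tests and alternatives were chosen with earlier results of these data known. In each role, up to 3 copies with the largest rise and fall from proximal to distal, the largest at each boundary, their other copies and the most abundant copy per length are given with all 6 values, where the adjusted p was under 0.05 and the higher segment reached 1 CPM. Other named copies were chosen after their values were seen. A list of 18 limb patterning genes (15 named, 25 gene IDs) gave 11 higher and 13 lower in distal than in proximal, against 39.3% and 49.0% of all named genes. Alternatives were RLE factors, 2 other filters, DESeq2 1.42.0, limma-voom, only the libraries compared, a replicate block and leaving out each library.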

Additional observations from a re-analysis of the deposited data

How the results depend on the processing

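None of the 243 log2 fold changes of guidance genes (81 copies, 3 comparisons) changed sign as a call in any of the 13 alternatives run. Of 173 called values, 115 kept their call throughout, 58 lost it on leaving out at least 1 library, and 14 lost it under at least 1 other alternative. Of 70 values not called, 17 gained a call under at least 1 alternative. The number of guidance genes called with 1 library left out ranged from 60 to 76 between distal and proximal (73 with all), from 49 to 67 between distal and medial (65) and from 19 to 35 between medial and proximal (35), and from 61 to 80 for any difference (79). Over all genes the same ranges were 4598 to 9378, 3188 to 6713, 996 to 2617 and 4533 to 9497. Pairs of copies that differed ranged from 473 to 572 over all pairs and from 14 to 18 among guidance genes. The other alternatives moved no count by more than 1.5 times. Same-numbered pools share a number and a colour name, and the labels do not say what these mark. Their deviations correlated at 0.03, 0.05 and 0.20 across genes in the 3 comparisons (distal against proximal, distal against medial, medial against proximal). With the replicate block, 74, 66 and 37 guidance genes were called, and no called guidance gene lost its call. The block added calls of ephb2.L against proximal (adjusted p = 0.00536) and medial (adjusted p = 0.0398), and of the inner steps of efna2.L (adjusted p = 0.0429) and nrp2.S (adjusted p = 0.0363). The alternatives for the test of any difference were added after seeing the data. Levels without length scaling changed the leading gene of 1 of the 7 roles (sema6a.L in place of sema3a.L). With 2 pools a segment, p-values set segment differences against a spread between pools that was estimated over all 6 libraries, with information shared across genes. Genes near the floor of 3 counts (dcc.S, sema6b.L, sema6b.S, slitrk3.S and slitrk4.L) have fold changes of uncertain size.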

Other observations

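Some genes of the same families carry provisional or other names that the symbol rule leaves out. They were looked up after their names had been seen, and 18 such gene IDs were found in the authors' deposited table. Between distal and proximal 16 of them were lower in distal and 2 higher (LOC108707897 and LOC108714653). The authors had selected these gene IDs in the same way as the members, so that calls are frequent. Of all named genes 88.3% were called, 49.0% lower and 39.3% higher, and of all genes tested 15.9% were lower and 13.6% higher. The 6 Eph receptors among them, 5 lower and 1 higher in distal than in proximal, had some of the steepest courses. One gene provisionally named epha3 (LOC108718221) was at 1.89 and 1.48 CPM in the proximal pools, 5.39 and 4.06 CPM in the medial pools and 0.0417 and 0.0675 CPM in the distal pools. Each distal library held 1 count of it, and distal was called lower than medial (adjusted p = 2.38e-06). Other genes with that provisional name, LOC108709206 and LOC108707897, were also highest in medial (0.87 and 1.19 from proximal to medial on the log2 scale, adjusted p = 0.0012 and 0.000337). A further one, LOC108717159, had its highest mean in proximal (3.57 ± 0.422 CPM, SD, n = 2). A gene provisionally named epha8 (LOC108697840) fell at both boundaries, from 10.2 ± 0.539 CPM through 3.08 ± 0.204 CPM to 0.7 ± 0.131 CPM (SD, n = 2).

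Outside the Eph receptors, 11 of 12 such gene IDs were lower in distal than in proximal, against 49.0% of the named genes. The exception, LOC108714653, provisionally ntn4, rose from 2.88 ± 0.469 CPM to 12.3 ± 3.50 CPM (log2 fold change 2.17, SE 0.22, adjusted p = 2.37e-05). Genes provisionally named slit1 (LOC108695757) and robo2 (LOC108696402) fell across the inner boundary (−1.26 and −0.69, adjusted p = 3.64e-05 and 0.00207). Between distal and medial neither was called (−0.01 and −0.08, adjusted p = 0.969 and 0.643). Genes provisionally named slit3 were lower in distal than in proximal. LOC108710233 was at 62.7 ± 3.43 CPM in proximal, 70.4 ± 2.05 CPM in medial and 43.4 ± 2.10 CPM in distal (log2 fold change −0.53, SE 0.09, adjusted p = 0.00125). LOC108712410 fell more (log2 fold change −1.79, SE 0.13, adjusted p = 1.62e-06). The fall of sema3fl, a separate gene from sema3f, was seen in both copies (log2 fold change −2.54, SE 0.15, adjusted p = 3.72e-07 for L, and log2 fold change −1.91, SE 0.14, adjusted p = 1.83e-06 for S), whereas both sema3f copies rose. Exons of sema3fl.S overlap another annotated gene, so its value is uncertain.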
